A study of Arabidopsis thaliana with 12 samples.

Results

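The genes described here are 44 nuclear genes of Arabidopsis thaliana that encode the protein parts of the light-harvesting antennae (LHCA and LHCB), of photosystem I (PSA) and photosystem II (PSB), and the small subunit of Rubisco (RBCS). They were picked out by locus, as named on the array, in a list drawn up with earlier results of these data known. All 44 were among the 25665 loci with a probe, and all 44 were among the 20267 loci tested. They comprise 6 LHCA genes, 9 genes of the trimeric LHCB antenna (LHCB1, LHCB2 and LHCB3), 5 genes of the minor antenna (LHCB4, LHCB5 and LHCB6), 4 RBCS genes, 12 PSA genes and 8 PSB genes.

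Transcripts were measured on 12 one-colour Agilent arrays, with 4 arrays in each of 3 groups. The 35S:MYB106SRDX:NOS plants carried MYB106, a MYB transcription factor of the epidermis, fused to SRDX, a short peptide that turns a transcription factor into a dominant repressor. The 35S:WIN1SRDX:NOS plants carried the same peptide on WIN1, an AP2/ERF-type activator of cuticle lipid genes. The third group was wild type (WT). All plants were of the Columbia-0 ecotype, 3 weeks old, raised on MS agar with 1% sucrose at 23 degrees Celsius under 16 h of light and 8 h of dark, and whole seedlings were taken. The 35S promoter is active in most cell types, not in the epidermis alone. The labels state that some of the seedlings on a plate were harvested for RNA, and name neither separate plates nor independent transgenic lines for the replicates. The p-values therefore reflect the variation among these 12 samples alone, and part or all of it may be technical.

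In plants, LHCB proteins bind most of the chlorophyll that feeds photosystem II, and LHCA proteins form the antenna of photosystem I. Plastocyanin carries electrons between the cytochrome complex and photosystem I, and Rubisco fixes carbon dioxide with large subunits made in the chloroplast and small subunits made from nuclear genes. The nuclear genes are classic light-induced genes, and most of their products are imported into the chloroplast of green cells. In whole seedlings, fewer green cells and less transcript per green cell cannot be told apart.

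Levels are given as log2 of the processed spot signal minus the 75th percentile of log2 signal on the same array, so 0 is that percentile and 1 unit is a 2-fold difference in signal. The brightness of a spot depends on its probe as well as on its transcript, so a brighter spot does not mean a more abundant transcript, and ratios of 2 genes are compared only between groups. Values of a group are listed for replicates 1 to 4 in turn. A gene passed when its adjusted p in the limma fit was under 0.05, after Benjamini-Hochberg adjustment over all genes tested. Of the 44 genes, 39 were well above background on all 12 arrays. LHCB2.1 was above background on 3 of 4 and LHCB2.2 on 2 of 4 MYB106SRDX arrays. LHCB2.3, RBCS2B and PSBY had a spot marked as an outlier on the array of WIN1SRDX replicate 2, so each has n = 3 in that line. No member spot was saturated. The probes of near-identical family members can share transcripts, and how far they do was not measured.

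The labels were checked first on the transgenes. MYB106 stood higher in MYB106SRDX seedlings than in WT (log2 fold change 6.46 ± 0.54 SE, adjusted p = 7.56e-06), and WIN1 stood higher in WIN1SRDX seedlings (log2 fold change 13.22 ± 1.14 SE, adjusted p = 4.19e-05). The group median of spot intensity was 76.7 ± 7.87 in MYB106SRDX, 112.5 ± 22.3 in WIN1SRDX and 133.7 ± 7.0 in WT (SD, n = 4 arrays each), before scaling. Correlations between arrays of a group lay between 0.926 and 0.994.

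MYB106SRDX seedlings had lower levels of a subset of antenna and photosystem I transcripts. Fewer of the 44 genes passed lower in WIN1SRDX seedlings. Against WT, 22 of the 44 genes passed lower in MYB106SRDX seedlings, where 28.6% of all tested genes did. One gene, RBCS1B, passed higher there, where 23.6% of all tested genes did, and 21 did not pass. Of the 22 lower genes, 12 were more than 2-fold lower, where 18.3% of all tested genes passed at that size. The median log2 fold change of the 44 was -0.46, against -0.05 over all tested genes. In WIN1SRDX seedlings, 8 genes passed lower than in WT, where 15.2% of all tested genes did, RBCS1B alone passed higher, where 17.4% did, and 35 did not pass. The median of the 44 there was -0.22, against 0.0014 over all genes. In this fit, the lower share in MYB106SRDX was thus above the share among all genes, and that in WIN1SRDX was close to it. The median SD of the 44 was 0.34 in MYB106SRDX, 0.20 in WIN1SRDX and 0.11 in WT. With only the groups compared in the fit, LHCB1.4, LHCB2.1, LHCB2.2, LHCB2.3, LHCB3, PSAD2 and PSAH2 also passed lower in WIN1SRDX. In MYB106SRDX, LHCA5 then passed lower, and LHCB1.4, LHCB2.3, LHCB4.2 and LHCB6 did not pass. Of all tested genes, 8287 then passed in either direction in WIN1SRDX, against 6605 in the single fit.

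The counts by role stand beside shares of 28.6% of all tested genes lower in MYB106SRDX and 15.2% in WIN1SRDX, and no difference between roles was tested. In MYB106SRDX the lower genes were 3 of 6 LHCA, 6 of 9 trimeric LHCB, 3 of 5 minor LHCB, 8 of 12 PSA and 2 of 8 PSB genes, and none of the 4 RBCS genes. In WIN1SRDX they were 1 of 6 LHCA, 1 of 9 trimeric LHCB, 0 of 5 minor LHCB, 1 of 4 RBCS, 4 of 12 PSA and 1 of 8 PSB genes. Both comparisons share the 4 WT arrays, so their values are not independent of each other. The arrays of a line and WT did not overlap, with the line lower, for 21 of the 44 genes in MYB106SRDX, where 28.3% of all tested genes did so, and for 15 genes in WIN1SRDX, where 21% did. The plot of fold changes by gene shows all 44 in both lines.

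**Figure D1:**
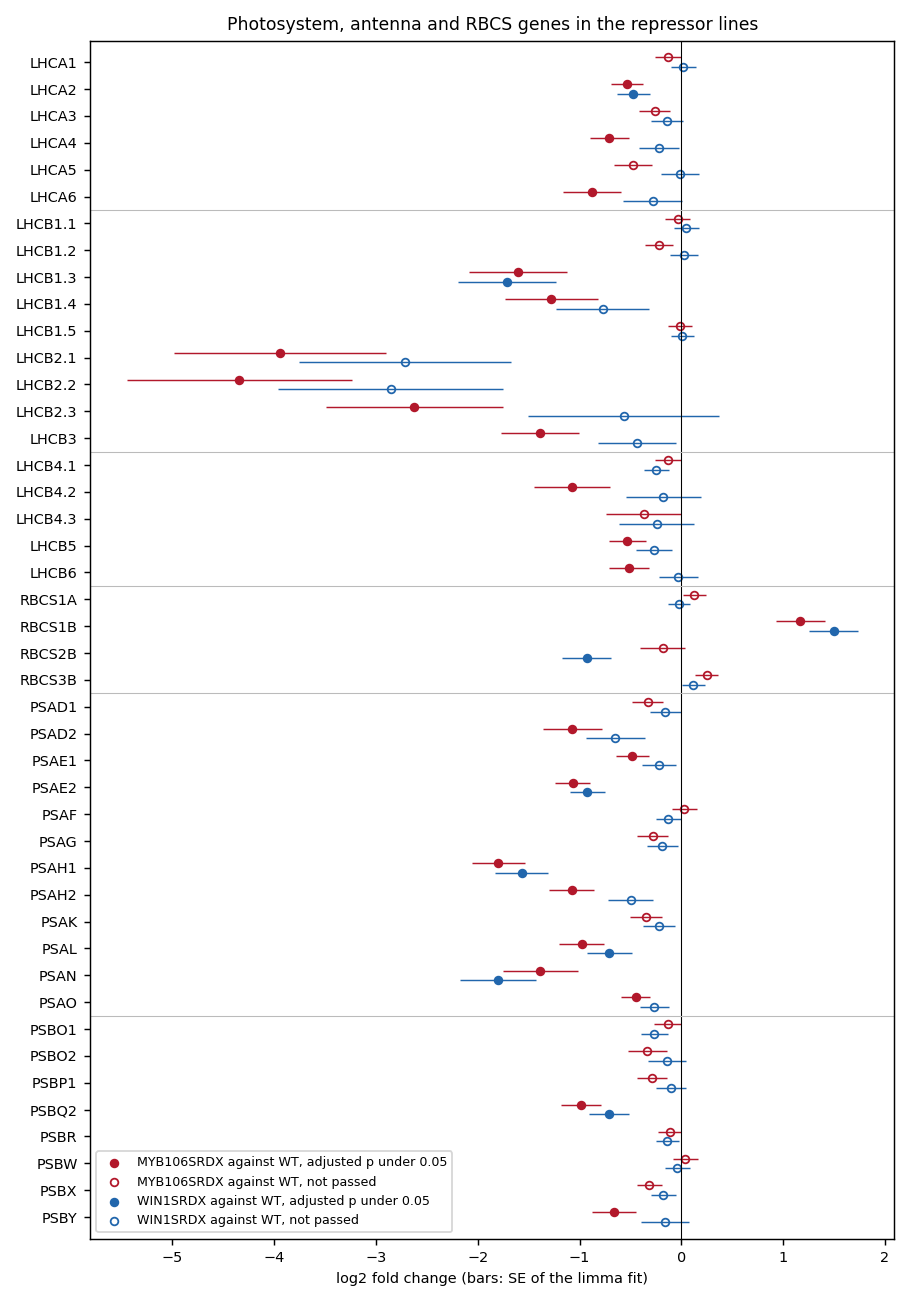
Log2 fold change of each of the 44 genes (rows, grouped by role) in MYB106SRDX against WT (red) and WIN1SRDX against WT (blue), with the SE of the limma fit as bars and filled points for adjusted p under 0.05. Most points lie at or left of 0, LHCB2.1 and LHCB2.2 lie farthest left, and RBCS1B is the only filled point right of 0.

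The counts for MYB106SRDX depended on how the arrays were scaled. With each array's median in place of its 75th percentile, the median log2 fold change of all tested genes moved by 0.54, to 0.48. Of all tested genes, 13033 passed there, against 10587 with the 75th percentile, in counts that do not separate the directions. Of the 44 genes, 5 passed lower and 10 passed higher. The 5 were LHCB2.1, LHCB2.2, LHCB2.3, PSAE2 and PSAH1. The 10 were RBCS1B and, with log2 fold changes of 0.41 to 0.78, LHCA1, LHCB1.1, LHCB1.5, LHCB4.1, RBCS1A, RBCS3B, PSAF, PSBR and PSBW. A change of scaling moves all genes of an array alike, so the 44 stayed at -0.41 relative to the median of all genes. That value is therefore no check of the falls. The smaller falls in MYB106SRDX given below for LHCA2, LHCB5, LHCB6, PSAE1 and PSAO turned to log2 fold changes of 0.0053 to 0.090 with the array median, and none of these 5 passed there.

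The 4 MYB106SRDX arrays differed among themselves in these genes. Replicate 1 was the highest of the 4 arrays for 41 of the 44 genes, and replicate 4 was the lowest for 31. The arrays lay on 3 slides, and each slide held all 3 groups. Of MYB106SRDX, slide 1 held replicate 1, slide 2 replicates 2 and 3, and slide 3 replicate 4, beside 2, 1 and 1 WT arrays. Slide and replicate therefore cannot be told apart, and the slide values are not separate from the order of replicates. Within slides, the median log2 difference of the 44 genes between MYB106SRDX and WT was -0.09 on slide 1 (28 of 44 genes below 0), -0.48 on slide 2 (39 of 44) and -0.67 on slide 3 (38 of 44). Between WIN1SRDX and WT it was -0.23, -0.05 and -0.28 on slides 1 to 3. Without MYB106SRDX replicate 1, 29 genes passed lower in that line, without replicate 4, 16 did, and without WT replicate 2, 14 did. Of all tested genes, 10172, 10040 and 9226 passed in either direction in those fits, against 10587 with all arrays. In WIN1SRDX, 5 genes passed lower without WT replicate 1, where 4834 of all tested genes passed in either direction, against 6605 with all arrays. With slide as a block, 18 passed lower in MYB106SRDX and 6 in WIN1SRDX, where 9877 and 5727 of all tested genes passed in either direction.

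**Figure D2:**
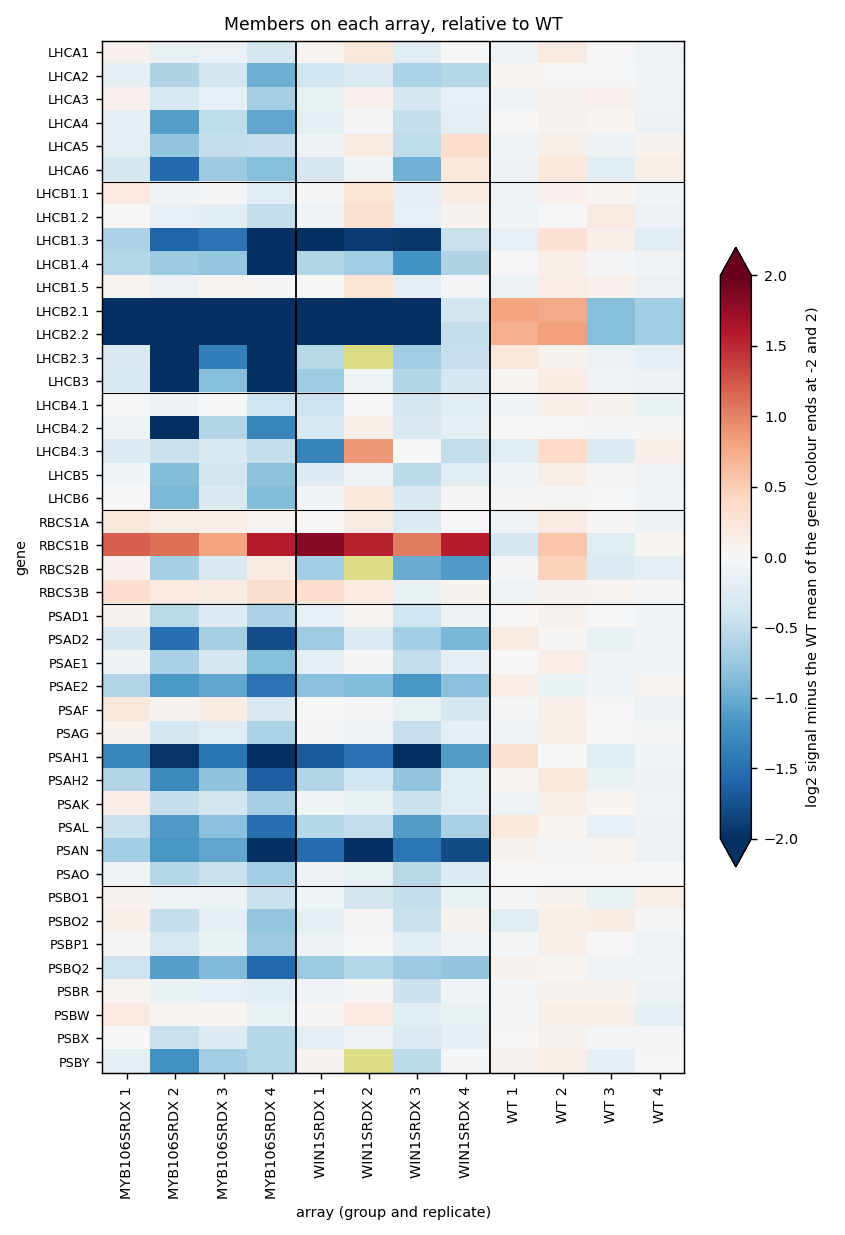
Level of each of the 44 genes (rows) on each of the 12 arrays (columns, MYB106SRDX, then WIN1SRDX, then WT) as log2 signal minus the gene's WT mean, blue below and red above it, with the colour ending at -2 and 2. Olive cells mark 3 missing values on the WIN1SRDX replicate 2 array. The MYB106SRDX replicate 1 column is paler than the other MYB106SRDX columns for most genes, and RBCS1B is red on all 8 arrays of the lines.

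Marker genes of other tissues and states moved with the lines. Root markers summed, on the linear scale of the same signals, to 13.4 to 37.7 per array in MYB106SRDX, 34.8 to 60 in WIN1SRDX and 30.5 to 33.6 in WT. Of 11 root genes, 9 passed lower and WOX5 passed higher in MYB106SRDX, and 4 of them (COBL9, EXPA18, PLT1 and PLT2) were above background on none of its arrays. COBL9, an anchored cell-wall protein of root hairs, was at least 43.4-fold lower there than in WT, and EXPA18, a root-hair expansin, was at least 16.7-fold lower. In a bound such as these, the dim group is set at the lowest signal well above background on each of its arrays. In WIN1SRDX, 6 root genes passed higher and 2 lower, led by EXPA18 (2.3 ± 0.32), PLT2 (2.92 ± 0.43) and EXPA7 (2.64 ± 0.40). Senescence markers summed to 37.4 to 60.8 in MYB106SRDX, 13.9 to 16.8 in WIN1SRDX and 5.68 to 8.04 in WT. Of 5 tested senescence genes, 4 passed higher in MYB106SRDX and 3 in WIN1SRDX. In WIN1SRDX, 1 of the 5 went the other way. Its log2 fold change was -1.32, with all its arrays below WT, and it did not pass. SAG13 had log2 fold changes of 7.93 ± 0.43 and 5.74 ± 0.43, and NAP 2.03 ± 0.21 and 0.73 ± 0.21, in MYB106SRDX and WIN1SRDX against WT. ORE1 had 2.31 ± 0.21 in MYB106SRDX, and SWEET15 had 2.93 ± 0.59 in WIN1SRDX. Flower markers summed to 3.3 to 16.2 in MYB106SRDX, 0.488 to 10.2 in WIN1SRDX and 0.252 to 1.43 in WT, with PI (3.48 ± 1.04) and SEP3 (3.69 ± 1.14) among the 3 tested genes passing higher in MYB106SRDX and none of 3 passing in WIN1SRDX. The part of these tissues and states in the photosynthetic genes was not tested.

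The RBCS family encodes the small subunit of Rubisco, and its 4 genes did not move together. RBCS1B (AT5G38430) was the only one of the 44 genes to pass higher in either line with the 75th percentile. Its levels were 5.46, 5.37, 5.05 and 5.84 on the MYB106SRDX arrays, 6.08, 5.8, 5.3 and 5.83 on the WIN1SRDX arrays and 3.91, 4.81, 4.02 and 4.3 on the WT arrays. No array of either line overlapped WT, and every array of the lines was above the highest WT array. RBCS1B rose 2.25-fold in MYB106SRDX seedlings against WT (log2 fold change 1.17 ± 0.24 SE, adjusted p = 0.00207) and 2.82-fold in WIN1SRDX seedlings (log2 fold change 1.49 ± 0.24 SE, adjusted p = 0.00117), and it was called under every alternative setting tried in both lines.

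RBCS2B (AT5G38420), the next gene beside RBCS1B, went the other way in WIN1SRDX. Its levels were 6.0, 5.25, 5.62 and 6.06 on the MYB106SRDX arrays, 5.24, 4.93 and 4.78 on the WIN1SRDX arrays and 5.9, 6.38, 5.64 and 5.74 on the WT arrays, with WIN1SRDX replicate 2 missing. The 3 WIN1SRDX arrays lay below all WT arrays, and the MYB106SRDX arrays overlapped WT. RBCS2B fell 1.91-fold in WIN1SRDX seedlings (log2 fold change -0.93 ± 0.24 SE, adjusted p = 0.0147) and had a log2 fold change of -0.18 ± 0.22, adjusted p = 0.512 in MYB106SRDX seedlings.

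RBCS1A (AT1G67090) and RBCS3B (AT5G38410) did not pass in either line, although both passed higher in MYB106SRDX with array-median scaling. RBCS1A stood at 6.9, 6.79, 6.77 and 6.72 on the MYB106SRDX arrays, 6.68, 6.84, 6.39 and 6.68 on the WIN1SRDX arrays and 6.59, 6.83, 6.69 and 6.57 on the WT arrays, and the groups overlapped. Its log2 fold change was 0.13 ± 0.11, adjusted p = 0.365 in MYB106SRDX and -0.022 ± 0.11, adjusted p = 0.895 in WIN1SRDX. RBCS3B stood at 6.3, 6.17, 6.13 and 6.29 on the MYB106SRDX arrays, 6.31, 6.18, 5.84 and 6.04 on the WIN1SRDX arrays and 5.88, 6.04, 6.03 and 5.95 on the WT arrays. Its MYB106SRDX arrays all lay above WT, without passing the test (log2 fold change 0.25 ± 0.11 SE, adjusted p = 0.0823), and its WIN1SRDX arrays overlapped WT (log2 fold change 0.12 ± 0.11 SE, adjusted p = 0.438). RBCS3B, RBCS2B and RBCS1B follow one another on the chromosome, so the rise and the fall in WIN1SRDX were in adjacent genes.

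Ratios of 2 family members on the same array do not depend on how arrays were scaled. The log2 ratio of RBCS1B over RBCS2B averaged -0.31 ± 0.32 in MYB106SRDX seedlings and -1.66 ± 0.24 in WT seedlings (SD, n = 4 each), and 0.75 ± 0.35 in WIN1SRDX seedlings (n = 3). The differences from WT were 1.35 and 2.41, and in neither line did the arrays overlap WT. RBCS1A over RBCS1B differed by -1.04 in MYB106SRDX and by -1.52 in WIN1SRDX. A ratio shows unequal change between 2 genes and not which of them changed. Over all 26 pairs within 8 families, 14 ratios did not overlap between MYB106SRDX and WT, and 14 did not between WIN1SRDX and WT. Pairs that share a gene are not independent, and ratios of other gene pairs were not counted. Among single tested genes, the arrays did not overlap WT for 4932 higher and 5739 lower of 20267 in MYB106SRDX. In WIN1SRDX these counts were 4466 and 4253. The exact two-sided permutation test of 4 against 4 arrays cannot go below p = 0.0286, and after adjustment over the 26 pairs the lowest p was 0.0531 in either line, so no pair passed.

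**Figure D3:**
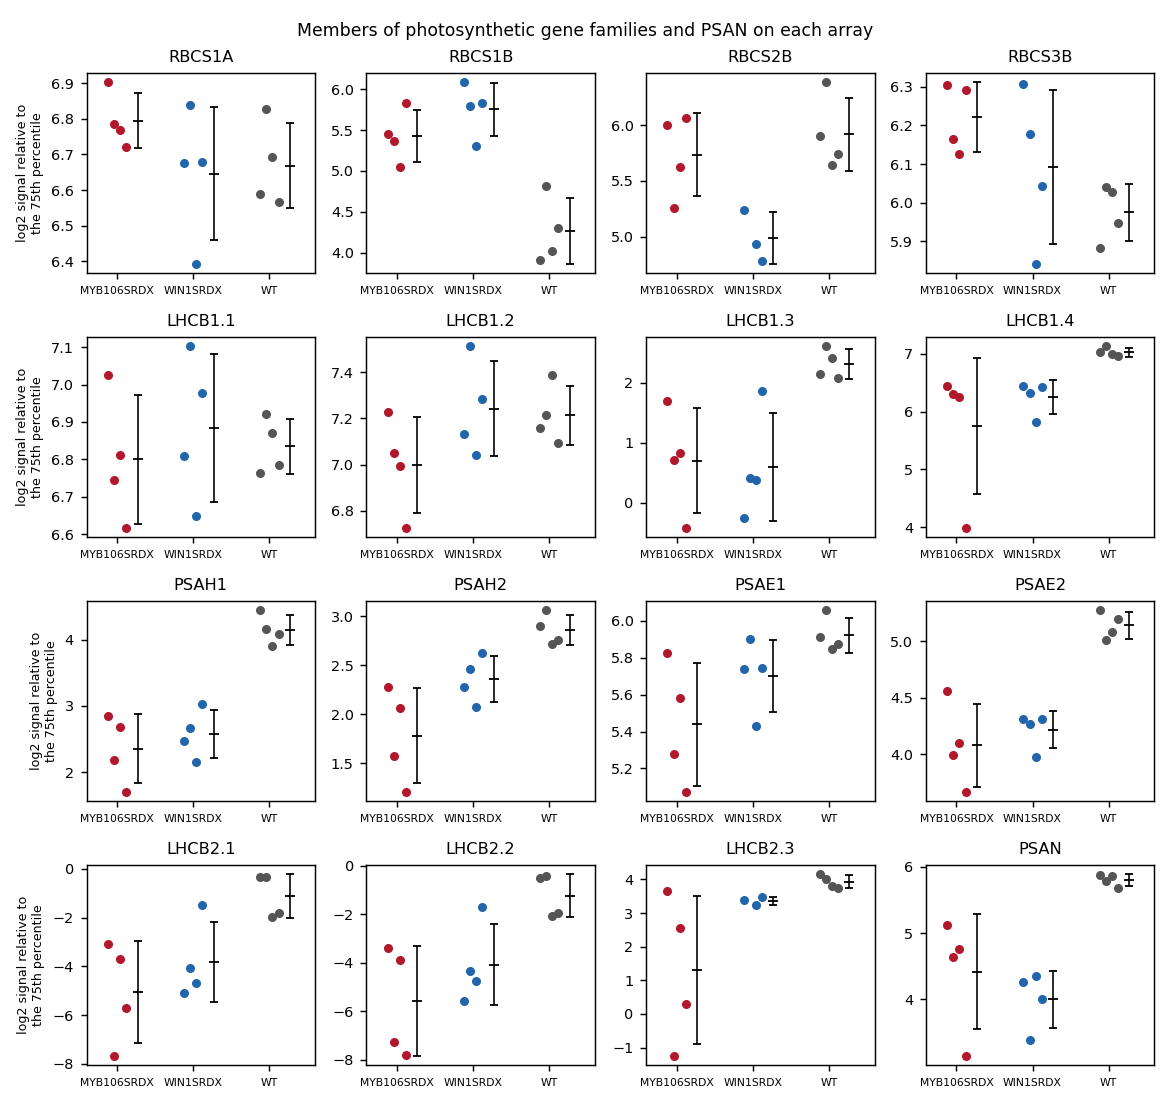
Level of 16 genes on each array (points, replicates 1 to 4 from left to right) in MYB106SRDX, WIN1SRDX and WT, as log2 signal relative to the array's 75th percentile, with the mean and SD as the bar beside the points; each panel has its own axis, which does not start at 0. RBCS1B stands above WT on all arrays of both lines, RBCS2B below it in WIN1SRDX, and PSAH1, PSAE2 and PSAN below it on every array of both lines.

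The differences of RBCS1B, PSAH1, PSAE2 and RBCS2B from WT were also read within slides. On slides 1, 2 and 3, RBCS1B differed from WT by 1.1, 1.19 and 1.53 in MYB106SRDX and by 1.73, 1.78 and 1.26 in WIN1SRDX. PSAH1 (AT3G16140) differed by -1.45, -1.47 and -2.39 in MYB106SRDX and by -1.83, -1.24 and -1.49 in WIN1SRDX. PSAE2 (AT2G20260) differed by -0.59, -1.04 and -1.53 in MYB106SRDX and by -0.83, -0.82 and -1.05 in WIN1SRDX. No array of either line overlapped WT for these 3 genes. The sign on each slide was therefore fixed in advance and is no check of the slides. RBCS2B differed by -0.90 and -0.88 on slides 1 and 3 in WIN1SRDX.

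The trimeric antenna of photosystem II is built from LHCB1, LHCB2 and LHCB3 proteins. With the 75th percentile, 6 of its 9 genes passed lower in MYB106SRDX and 3 did not pass. LHCB2.2 (AT2G05070) and LHCB2.1 (AT2G05100), which are adjacent protein-coding genes, had the largest falls of all 44 in MYB106SRDX. LHCB2.2 stood at -3.38, -7.26, -3.88 and -7.79 on the MYB106SRDX arrays, -5.59, -4.32, -4.74 and -1.72 on the WIN1SRDX arrays and -0.50, -0.42, -2.08 and -1.94 on the WT arrays. LHCB2.1 stood at -3.1, -7.68, -3.71 and -5.72 on the MYB106SRDX arrays, -5.1, -4.05, -4.69 and -1.47 on the WIN1SRDX arrays and -0.32, -0.36, -1.96 and -1.8 on the WT arrays. All MYB106SRDX arrays lay below all WT arrays for both genes, while WIN1SRDX replicate 4 lay within the WT range and the other 3 WIN1SRDX arrays lay below it. In MYB106SRDX, LHCB2.2 had a log2 fold change of -4.34 ± 1.1, adjusted p = 0.00713, and LHCB2.1 had -3.94 ± 1.04, adjusted p = 0.00874. In WIN1SRDX neither passed (-2.86 ± 1.1, adjusted p = 0.0697 for LHCB2.2 and -2.72 ± 1.04, adjusted p = 0.0676 for LHCB2.1). Both passed lower there with only the groups compared in the fit. Their MYB106SRDX values below background carry little measure of size, since LHCB2.1 minus LHCB2.2 was 2.08 on the array of MYB106SRDX replicate 4 and between -0.41 and 0.49 on the other 11 arrays.

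LHCB2.3 (AT3G27690) passed lower in MYB106SRDX too, with a wide spread. Its levels were 3.64, -1.25, 2.56 and 0.28 on the MYB106SRDX arrays, 3.38, 3.23 and 3.47 on the WIN1SRDX arrays and 4.16, 4.01, 3.81 and 3.75 on the WT arrays, with WIN1SRDX replicate 2 missing. MYB106SRDX replicate 1 lay just under the lowest WT array and replicate 2 lay lowest. The 3 WIN1SRDX arrays lay below all WT arrays. LHCB2.3 had a log2 fold change of -2.62 ± 0.87, adjusted p = 0.0287 in MYB106SRDX and of -0.57 ± 0.94, adjusted p = 0.671 in WIN1SRDX. The fit shares 1 spread over the 3 groups, and the SD of LHCB2.3 was 2.21 in MYB106SRDX, 0.12 in WIN1SRDX and 0.19 in WT. With only the groups compared in the limma fit, LHCB2.3 passed lower in WIN1SRDX (adjusted p = 0.0149). Its MYB106SRDX call held in 11 of 18 alternatives and was lost without MYB106SRDX replicate 4 or any 1 of the 4 WT arrays (adjusted p = 0.0536 to 0.074), and with slide as a block (adjusted p = 0.0703). LHCB3 (AT5G54270), the third protein of the trimers, stood at 6.04, 4.22, 5.51 and 4.12 on the MYB106SRDX arrays, 5.64, 6.27, 5.77 and 6.01 on the WIN1SRDX arrays and 6.39, 6.51, 6.28 and 6.25 on the WT arrays. It passed lower in MYB106SRDX, 2.62-fold (log2 fold change -1.39 ± 0.38 SE, adjusted p = 0.0104), and not in WIN1SRDX (log2 fold change -0.44 ± 0.38 SE, adjusted p = 0.401). With only the groups compared in the limma fit, LHCB3 passed lower in WIN1SRDX (adjusted p = 0.0479).

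Of the 5 LHCB1 genes, the most abundant antenna proteins of the leaf, LHCB1.3 (AT1G29930) and LHCB1.4 (AT2G34430) passed lower in MYB106SRDX. LHCB1.3 stood at 1.7, 0.71, 0.83 and -0.42 on the MYB106SRDX arrays, -0.25, 0.42, 0.39 and 1.87 on the WIN1SRDX arrays and 2.15, 2.61, 2.41 and 2.08 on the WT arrays. Every array of both lines lay below WT. It fell 3.04-fold in MYB106SRDX (log2 fold change -1.61 ± 0.48 SE, adjusted p = 0.0161) and 3.27-fold in WIN1SRDX (log2 fold change -1.71 ± 0.48 SE, adjusted p = 0.0197). In WIN1SRDX the LHCB1.3 call held in 15 of 19 alternatives and was lost without WIN1SRDX replicate 1 or WT replicate 2 (adjusted p = 0.0522 to 0.0529), and with slide as a block (adjusted p = 0.0501). LHCB1.4 stood at 6.45, 6.29, 6.25 and 3.99 on the MYB106SRDX arrays, 6.43, 6.33, 5.82 and 6.42 on the WIN1SRDX arrays and 7.02, 7.13, 6.99 and 6.95 on the WT arrays. Every array of both lines lay below WT again, and MYB106SRDX replicate 4 lay more than 2 units below the other arrays of its group. LHCB1.4 passed lower in MYB106SRDX (log2 fold change -1.28 ± 0.46 SE, adjusted p = 0.0362) and not in WIN1SRDX (log2 fold change -0.77 ± 0.46 SE, adjusted p = 0.216). Its SD was 1.17 in MYB106SRDX, 0.29 in WIN1SRDX and 0.07 in WT. With only the groups compared in the limma fit, LHCB1.4 passed lower in WIN1SRDX (adjusted p = 0.00517). In MYB106SRDX the LHCB1.4 call held in 13 of 19 alternatives and was lost without any 1 of the 4 WT arrays (adjusted p = 0.0649 to 0.0753).

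The other LHCB1 genes did not pass against WT in either line. LHCB1.1 (AT1G29920) stood at 7.03, 6.75, 6.81 and 6.62 on the MYB106SRDX arrays, 6.81, 7.1, 6.65 and 6.98 on the WIN1SRDX arrays and 6.76, 6.92, 6.87 and 6.79 on the WT arrays. LHCB1.2 (AT1G29910) stood at 7.23, 7.05, 6.99 and 6.72 on the MYB106SRDX arrays, 7.13, 7.51, 7.04 and 7.28 on the WIN1SRDX arrays and 7.16, 7.22, 7.39 and 7.09 on the WT arrays. LHCB1.5 (AT2G34420) stood at 7.07, 6.89, 7.06 and 6.99 on the MYB106SRDX arrays, 7.01, 7.29, 6.81 and 6.99 on the WIN1SRDX arrays and 6.91, 7.15, 7.1 and 6.89 on the WT arrays. The arrays of the 3 groups overlapped for each of them. In MYB106SRDX their log2 fold changes were -0.035 ± 0.12 for LHCB1.1, -0.21 ± 0.14 for LHCB1.2 and -0.012 ± 0.12 for LHCB1.5, and in WIN1SRDX 0.049 ± 0.12, 0.029 ± 0.14 and 0.011 ± 0.12 in the same order. LHCB1.2, LHCB1.1 and LHCB1.3 are neighbours on the chromosome, as are LHCB1.5 and LHCB1.4, so in both clusters a gene that passed lower lay beside one that did not. With array-median scaling, LHCB1.1 and LHCB1.5 passed higher in MYB106SRDX.

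The minor antenna proteins link the trimers to the photosystem II core. LHCB4.2 (AT3G08940) stood at 6.42, 4.21, 5.92 and 5.19 on the MYB106SRDX arrays, 6.18, 6.61, 6.22 and 6.3 on the WIN1SRDX arrays and 6.5, 6.52, 6.48 and 6.53 on the WT arrays. MYB106SRDX replicates 2 and 4 lay far below WT and replicate 1 just below it. LHCB4.2 passed lower in MYB106SRDX (log2 fold change -1.07 ± 0.37 SE, adjusted p = 0.0319) and not in WIN1SRDX (log2 fold change -0.18 ± 0.37 SE, adjusted p = 0.742). The LHCB4.2 call held in 10 of 19 alternatives and was lost without MYB106SRDX replicate 4 or any 1 of the 4 WT arrays (adjusted p = 0.0605 to 0.0732), and with slide as a block (adjusted p = 0.0733). LHCB4.1 (AT5G01530) stood at 6.12, 6.03, 6.12 and 5.73 on the MYB106SRDX arrays, 5.72, 6.13, 5.79 and 5.9 on the WIN1SRDX arrays and 6.08, 6.24, 6.2 and 6.0 on the WT arrays, and LHCB4.3 (AT2G40100) at 0.22, 0.039, 0.17 and -0.0045 on the MYB106SRDX arrays, -0.86, 1.34, 0.48 and -0.021 on the WIN1SRDX arrays and 0.25, 0.86, 0.23 and 0.57 on the WT arrays. Neither passed, with log2 fold changes in MYB106SRDX of -0.13 ± 0.13 for LHCB4.1 and -0.37 ± 0.37 for LHCB4.3, and in WIN1SRDX of -0.24 ± 0.13 and -0.24 ± 0.37. LHCB5 (AT4G10340) and LHCB6 (AT1G15820), single genes for the other minor antenna proteins, passed lower in MYB106SRDX by 1.44-fold (log2 fold change -0.53 ± 0.18 SE, adjusted p = 0.0276) and 1.43-fold (log2 fold change -0.52 ± 0.19 SE, adjusted p = 0.0446), although their arrays overlapped WT. The LHCB5 call held in 13 of 19 alternatives and was lost without MYB106SRDX replicate 2 or 4 or WT replicate 2 or 3 (adjusted p = 0.0593 to 0.0738). The LHCB6 call held in 7 of 19 alternatives and was lost without MYB106SRDX replicate 2 or 4 or any 1 of the 4 WT arrays (adjusted p = 0.0752 to 0.116), and with slide as a block (adjusted p = 0.0684), and also with quantile normalization. In WIN1SRDX neither passed.

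Among the photosystem I antenna genes, LHCA1 (AT3G54890) to LHCA4 (AT3G47470) encode the 4 main proteins of the belt, and LHCA5 (AT1G45474) and LHCA6 (AT1G19150) encode minor ones used to attach the NDH complex. In MYB106SRDX, LHCA6 (-0.87 ± 0.29), LHCA4 (-0.71 ± 0.19) and LHCA2 (AT3G61470, -0.53 ± 0.16) passed lower, and LHCA2 was the only LHCA gene to pass in WIN1SRDX (-0.47 ± 0.16, adjusted p = 0.0431). LHCA2 lay at 5.31 to 6.11 in MYB106SRDX, 5.65 to 6.01 in WIN1SRDX and 6.24 to 6.35 in WT, with no overlap between either line and WT. Its WIN1SRDX call held in 8 of 19 alternatives and was lost without WIN1SRDX replicate 1, 3 or 4 or any 1 of the 4 WT arrays (adjusted p = 0.0651 to 0.104), and with slide as a block (adjusted p = 0.0636), and also with the authors' value table and array-median scaling. The LHCA6 call in MYB106SRDX held in 14 of 19 alternatives and was lost without MYB106SRDX replicate 2 or WT replicate 2 or 4 (adjusted p = 0.058 to 0.0638), and with slide as a block (adjusted p = 0.0603). LHCA1 and LHCA3 (AT1G61520) did not pass in either line. LHCA5 had 2 probes that disagreed on the call. The brighter probe did not pass in MYB106SRDX (log2 fold change -0.48 ± 0.19 SE, adjusted p = 0.0524), and the other did, at -0.66 ± 0.19 (adjusted p = 0.0155).

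Of the 12 photosystem I genes, PSAH1 and PSAE2 passed lower in both lines under every alternative setting tried. PSAH1, which encodes a subunit on the side where LHCB trimers dock, stood at 2.85, 2.18, 2.68 and 1.7 on the MYB106SRDX arrays, 2.47, 2.66, 2.16 and 3.03 on the WIN1SRDX arrays and 4.45, 4.16, 3.91 and 4.09 on the WT arrays. Every array of both lines lay below every WT array. PSAH1 fell 3.47-fold in MYB106SRDX (log2 fold change -1.8 ± 0.26 SE, adjusted p = 0.000247) and 2.97-fold in WIN1SRDX (log2 fold change -1.57 ± 0.26 SE, adjusted p = 0.00146). Its paralog PSAH2 (AT1G52230) stood at 2.28, 1.58, 2.06 and 1.21 on the MYB106SRDX arrays, 2.28, 2.46, 2.08 and 2.63 on the WIN1SRDX arrays and 2.9, 3.06, 2.72 and 2.75 on the WT arrays. It passed lower in MYB106SRDX (log2 fold change -1.08 ± 0.22 SE, adjusted p = 0.00205), and in WIN1SRDX its arrays lay below WT without passing (log2 fold change -0.50 ± 0.22 SE, adjusted p = 0.105). The ratio of PSAH1 over PSAH2 differed from WT by -0.72 in MYB106SRDX and by -1.07 in WIN1SRDX.

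PSAE2, one of 2 genes for a stromal subunit at the ferredoxin docking site, stood at 4.56, 3.99, 4.1 and 3.66 on the MYB106SRDX arrays, 4.31, 4.27, 3.98 and 4.31 on the WIN1SRDX arrays and 5.28, 5.01, 5.09 and 5.2 on the WT arrays. The lines and WT did not overlap. PSAE2 fell 2.09-fold in MYB106SRDX (log2 fold change -1.07 ± 0.17 SE, adjusted p = 0.000482) and 1.9-fold in WIN1SRDX (log2 fold change -0.93 ± 0.17 SE, adjusted p = 0.00256). PSAE1 (AT4G28750) stood at 5.83, 5.28, 5.58 and 5.07 on the MYB106SRDX arrays, 5.74, 5.9, 5.43 and 5.74 on the WIN1SRDX arrays and 5.91, 6.06, 5.85 and 5.87 on the WT arrays. It passed lower in MYB106SRDX (log2 fold change -0.48 ± 0.16 SE, adjusted p = 0.0286) and not in WIN1SRDX (log2 fold change -0.22 ± 0.16 SE, adjusted p = 0.325). The PSAE1 call held in 13 of 19 alternatives and was lost without MYB106SRDX replicate 2 or 4 or WT replicate 1, 2 or 4 (adjusted p = 0.0517 to 0.0747). The log2 ratio of PSAE1 over PSAE2 differed from WT by 0.58 in MYB106SRDX and 0.71 in WIN1SRDX, with no overlap.

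PSAD1 (AT4G02770) and PSAD2 (AT1G03130) encode the subunit that binds ferredoxin. PSAD2 stood at 4.26, 3.07, 3.93 and 2.81 on the MYB106SRDX arrays, 3.87, 4.32, 3.89 and 3.68 on the WIN1SRDX arrays and 4.75, 4.62, 4.45 and 4.54 on the WT arrays. Every array of both lines lay below WT, and PSAD2 passed in MYB106SRDX (log2 fold change -1.07 ± 0.29 SE, adjusted p = 0.00956) but not in WIN1SRDX (log2 fold change -0.65 ± 0.29 SE, adjusted p = 0.106). PSAD1 stood at 6.71, 6.09, 6.38 and 6.02 on the MYB106SRDX arrays, 6.46, 6.68, 6.23 and 6.52 on the WIN1SRDX arrays and 6.64, 6.7, 6.62 and 6.58 on the WT arrays and did not pass in either line (-0.33 ± 0.15 in MYB106SRDX and -0.16 ± 0.15 in WIN1SRDX). The ratio of PSAD1 over PSAD2 differed from WT by 0.74 in MYB106SRDX and 0.49 in WIN1SRDX. For each of the 3 photosystem I gene pairs, the ratios of either line did not overlap those of WT.

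PSAN (AT5G64040), a lumenal subunit near the plastocyanin docking site, stood at 5.12, 4.64, 4.76 and 3.15 on the MYB106SRDX arrays, 4.26, 3.39, 4.35 and 4.01 on the WIN1SRDX arrays and 5.88, 5.79, 5.86 and 5.68 on the WT arrays. Both lines lay below WT on every array. PSAN fell 2.61-fold in MYB106SRDX (log2 fold change -1.38 ± 0.37 SE, adjusted p = 0.00935), and its fall of 3.48-fold in WIN1SRDX was the largest of the 44 that passed there (log2 fold change -1.8 ± 0.37 SE, adjusted p = 0.00434). PSAL (AT4G12800), a subunit that borders PSAH, lay at 3.06 to 4.13 in MYB106SRDX, 3.45 to 4.08 in WIN1SRDX and 4.41 to 4.79 in WT, with log2 fold changes of -0.98 ± 0.22, adjusted p = 0.00362 in MYB106SRDX and -0.71 ± 0.22, adjusted p = 0.0309 in WIN1SRDX. The WIN1SRDX call of PSAL held in 13 of 19 alternatives and was lost without WIN1SRDX replicate 3 or 4 or WT replicate 1, 2 or 4 (adjusted p = 0.0509 to 0.0864). PSAO (AT1G08380), at the docking side of the trimers, passed lower in MYB106SRDX (log2 fold change -0.45 ± 0.14 SE, adjusted p = 0.0226) and not in WIN1SRDX (log2 fold change -0.27 ± 0.14 SE, adjusted p = 0.177). The PSAO call held in 16 of 19 alternatives and was lost without MYB106SRDX replicate 2 or 4 (adjusted p = 0.0508 to 0.0599). PSAF (AT1G31330), PSAG (AT1G55670) and PSAK (AT1G30380) did not pass in either line, with log2 fold changes between -0.34 ± 0.16 for PSAK and 0.030 ± 0.13 for PSAF in MYB106SRDX.

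Of the 8 photosystem II genes outside the antenna, PSBQ2 (AT4G05180) and PSBY (AT1G67740) passed in MYB106SRDX and PSBQ2 in WIN1SRDX. PSBQ2, which encodes a protein of the oxygen-evolving complex, stood at 5.22, 4.53, 4.75 and 4.07 on the MYB106SRDX arrays, 4.88, 5.06, 4.9 and 4.84 on the WIN1SRDX arrays and 5.7, 5.68, 5.56 and 5.58 on the WT arrays. Both lines lay below WT on every array, and PSBQ2 fell 1.99-fold in MYB106SRDX (log2 fold change -0.99 ± 0.20 SE, adjusted p = 0.00175) and 1.64-fold in WIN1SRDX (log2 fold change -0.71 ± 0.20 SE, adjusted p = 0.0186). In WIN1SRDX the PSBQ2 call held in 18 of 19 alternatives and was lost without WT replicate 1 (adjusted p = 0.0501). PSBY passed lower in MYB106SRDX (log2 fold change -0.66 ± 0.22 SE, adjusted p = 0.0269), with overlap between its arrays and WT. The PSBY call held in 10 of 18 alternatives and was lost without MYB106SRDX replicate 2 or 3 or WT replicate 1, 2 or 4 (adjusted p = 0.0516 to 0.0652). It was also lost with array-median scaling, with the authors' value table and with spots marked as outliers kept. The other oxygen-evolving genes PSBO1 (AT5G66570), PSBO2 (AT3G50820) and PSBP1 (AT1G06680) did not pass in either line, and their log2 fold changes in MYB106SRDX were -0.13 ± 0.13, -0.34 ± 0.19 and -0.29 ± 0.15. PSBR (AT1G79040), PSBW (AT2G30570) and PSBX (AT2G06520), small subunits of the complex, did not pass in either line, and PSBX came closest in MYB106SRDX (log2 fold change -0.32 ± 0.12 SE, adjusted p = 0.051).

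Between the lines themselves, RBCS2B alone passed, higher in MYB106SRDX than in WIN1SRDX (log2 fold change 0.75 ± 0.24 SE, adjusted p = 0.0294), where 42.6% of all tested genes passed in either direction and 18.3% passed higher. No gene of the 44 passed lower, where 24.2% of all tested genes did. An unadjusted p under 0.05 in the limma fit was found for 7 of the 44, and for 10303 of 20266 tested genes. The median of the 44 was -0.19, against -0.03 over all genes. Within slides this median was 0.21 on slide 1, -0.36 on slide 2 and -0.42 on slide 3. The only MYB106SRDX array was replicate 1 on slide 1 and replicate 4 on slide 3, so slide and replicate cannot be told apart. Without MYB106SRDX replicate 1, 10 of the 44 passed lower, where 8171 of all tested genes passed in either direction, against 8624 with all arrays. Among genes that passed lower in both lines, the log2 difference between lines was -0.23 ± 0.26 for PSAH1, -0.14 ± 0.17 for PSAE2, 0.10 ± 0.48 for LHCB1.3, -0.060 ± 0.16 for LHCA2, -0.27 ± 0.22 for PSAL, -0.28 ± 0.20 for PSBQ2 and 0.41 ± 0.37 for PSAN, and none passed. PSAN passed, higher in MYB106SRDX, without MYB106SRDX replicate 4 (adjusted p = 0.0128), and PSBQ2 passed, lower in MYB106SRDX, without MYB106SRDX replicate 1 (adjusted p = 0.0314). LHCB3 had -0.95 ± 0.38, adjusted p = 0.0641 and LHCB2.3 -2.05 ± 0.94, adjusted p = 0.105.

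Fold changes were larger among dimmer spots, in a split made after the values were seen. Of the 22 genes with the brighter spots, 6 passed lower in MYB106SRDX and 0 in WIN1SRDX. Of the 22 with the dimmer spots, 16 passed lower and 1 higher in MYB106SRDX, and 8 lower and 1 higher in WIN1SRDX. Among the 27 other genes in the brightness range of the brighter 22, 14.8% passed lower in MYB106SRDX and 11.1% in WIN1SRDX. Among the 16737 other genes in the range of the dimmer 22, 24.9% passed lower and 24.9% higher in MYB106SRDX, and 14.8% lower and 17.5% higher in WIN1SRDX. The Spearman correlation of mean level with the size of the log2 fold change over the 44 genes was -0.741 in MYB106SRDX and -0.695 in WIN1SRDX, as a description of probes that share arrays. The mean level was taken over all 12 arrays, so a gene's own fall in a line moved it toward the dim end. Part of the split and of the correlation is therefore built in. The brightest member spot reached 55.2% of saturation. Whether bright spots understate changes was not tested.

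**Figure D4:**
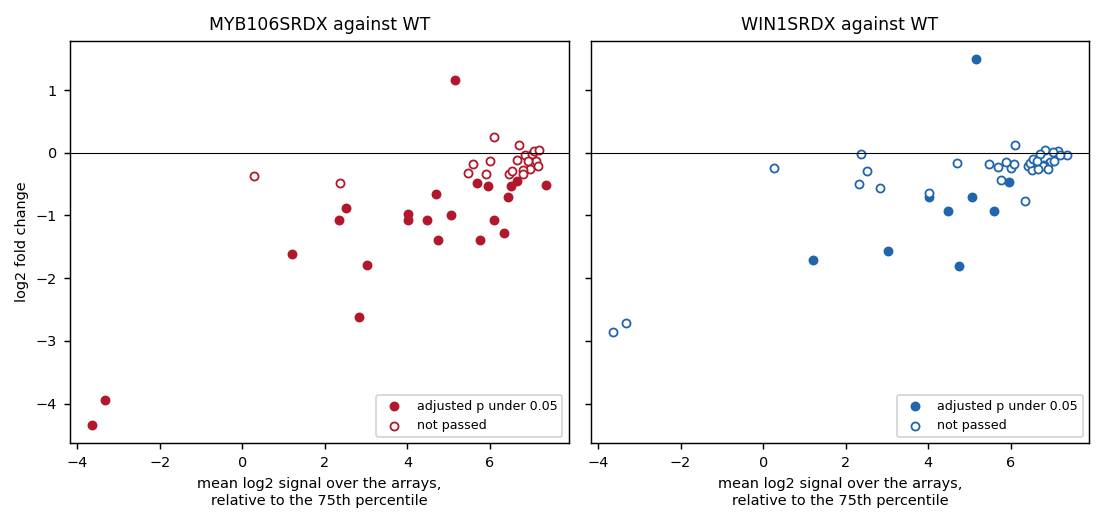
Log2 fold change against WT (vertical) by mean log2 level over all arrays (horizontal, relative to the 75th percentile) for the 44 genes, in MYB106SRDX on the left and WIN1SRDX on the right, with filled points for adjusted p under 0.05. Points at the bright end lie near 0 and spread downward toward the dim end, where LHCB2.1 and LHCB2.2 lie; RBCS1B is the point above 1.

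Other photosynthesis genes were taken from lists and read from the same fit, and their counts stand beside shares over all tested genes of 28.6% lower and 23.6% higher in MYB106SRDX and of 15.2% lower and 17.4% higher in WIN1SRDX. Of 20 chlorophyll synthesis genes, 2 passed lower and 0 higher in MYB106SRDX, and 3 lower and 1 higher in WIN1SRDX. PORA and PORB encode protochlorophyllide oxidoreductases. PORA had log2 fold changes of -1.92 ± 0.62, adjusted p = 0.0236 in MYB106SRDX and -3.04 ± 0.62, adjusted p = 0.00426 in WIN1SRDX, and PORB had -0.83 ± 0.26, adjusted p = 0.0212 in MYB106SRDX. In WIN1SRDX, HEMA1, a glutamyl-tRNA reductase at the start of the pathway, was lower (-1.52 ± 0.41, adjusted p = 0.0161), and CAO, which makes chlorophyll b, was higher (1.22 ± 0.34, adjusted p = 0.0187). Of 8 chlorophyll breakdown genes, 4 passed higher and 1 lower in MYB106SRDX, and 0 higher and 2 lower in WIN1SRDX. PAO, which opens the chlorophyll ring, had 1.31 ± 0.13, adjusted p = 2.38e-05 and SGR1, which removes its magnesium, 1.78 ± 0.19, adjusted p = 2.89e-05 in MYB106SRDX. SGR2 was above background on no MYB106SRDX array, at least 7.06-fold lower than in WT (adjusted p = 6.45e-05), and in WIN1SRDX it had -2.79 ± 0.60, adjusted p = 0.00549. It was above background on 3 of 4 WIN1SRDX arrays, with replicate 1 at -9.06 and the others at -6.96 to -5.5. The size of its WIN1SRDX fall is therefore uncertain. PPH, a pheophytinase, had -0.45 ± 0.13, adjusted p = 0.0214 in WIN1SRDX.

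Of 16 Calvin cycle genes, 3 passed lower and 1 higher in MYB106SRDX, and 2 lower and 0 higher in WIN1SRDX. HCEF1, a chloroplast fructose bisphosphatase, had -0.59 ± 0.15, adjusted p = 0.00823 in MYB106SRDX and -0.45 ± 0.15, adjusted p = 0.0422 in WIN1SRDX. CP12-2, a small regulator of the cycle, had -0.60 ± 0.19, adjusted p = 0.0236 and TKL1, a transketolase, 0.35 ± 0.12, adjusted p = 0.0348 in MYB106SRDX, and RPE, an epimerase, had -0.71 ± 0.18, adjusted p = 0.0112 in WIN1SRDX. Of 13 genes of electron transport and ATP synthase, 4 passed lower and 2 higher in MYB106SRDX, and 4 lower and 1 higher in WIN1SRDX. PETC, the Rieske protein of the cytochrome complex, had -0.64 ± 0.15, adjusted p = 0.00466 in MYB106SRDX and -1.07 ± 0.16, adjusted p = 0.00106 in WIN1SRDX. In MYB106SRDX, PETE1, a plastocyanin, had -0.87 ± 0.16, adjusted p = 0.00109, and FNR2, a ferredoxin reductase, -0.51 ± 0.15, adjusted p = 0.0142. In WIN1SRDX, FD2, a leaf ferredoxin, had -1.09 ± 0.24, adjusted p = 0.00571, and locus AT2G26500 -1.59 ± 0.24, adjusted p = 0.000786.

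Of 15 other photosystem and LHC-like genes, 2 passed lower and 1 higher in MYB106SRDX, and 1 lower and 2 higher in WIN1SRDX. LHCB7 had -1.16 ± 0.20, adjusted p = 0.000662 in MYB106SRDX and -0.67 ± 0.20, adjusted p = 0.0244 in WIN1SRDX, and SEP2, a stress-enhanced LHC-like protein, had 0.58 ± 0.19, adjusted p = 0.0245 and 0.71 ± 0.19, adjusted p = 0.0153 in the same order. OHP1 had -1.07 ± 0.31, adjusted p = 0.0131 in MYB106SRDX, and ELIP2, an early light-induced protein, had 2.21 ± 0.73, adjusted p = 0.0385 in WIN1SRDX. Of 9 photorespiration genes tested, 2 passed lower in MYB106SRDX, GLDP1 of the glycine decarboxylase (-0.95 ± 0.27, adjusted p = 0.0136) and HPR1, a hydroxypyruvate reductase (-0.62 ± 0.18, adjusted p = 0.0144), and 1 passed lower in WIN1SRDX, locus AT1G80380 (-0.79 ± 0.17, adjusted p = 0.00535). Of 4 genes that insert antenna proteins into the thylakoid, ALB3 passed lower in MYB106SRDX (-0.57 ± 0.15, adjusted p = 0.00781) and in WIN1SRDX (-0.43 ± 0.15, adjusted p = 0.0483), and CPSRP43 passed higher in WIN1SRDX (0.72 ± 0.16, adjusted p = 0.00561).

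Among regulators of chloroplast and light responses, 6 of 15 passed higher and 2 lower in MYB106SRDX, and 5 higher and 0 lower in WIN1SRDX. Of all tested genes, 23.6% passed higher and 28.6% lower in MYB106SRDX, and 17.4% higher and 15.2% lower in WIN1SRDX. HYH, a light-response bZIP factor, had 2.29 ± 0.44, adjusted p = 0.00142 in MYB106SRDX and 2.21 ± 0.44, adjusted p = 0.00364 in WIN1SRDX. In MYB106SRDX, PIF3, a phytochrome-interacting factor, had 1.4 ± 0.22, adjusted p = 0.000383, and GNC, a GATA factor of chloroplast development, had -1.49 ± 0.30, adjusted p = 0.00173. In WIN1SRDX, PIF1 had 1.48 ± 0.20, adjusted p = 0.000509, and HY5, a bZIP factor that acts with HYH, had 0.96 ± 0.19, adjusted p = 0.00311.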

How the data were processed

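Agilent Feature Extraction 9.1.3.1 made the processed signals, per the submitters' processing notes. Each deposited scanner file holds 1 array of spot intensity values. No build of the genome is named in the labels or headers used. The deposited value table, a ratio per probe, equals the processed intensity over a constant within 1% for all probes. The constant was 1082.6 on the MYB106SRDX arrays, 995.6 to 995.7 on the WIN1SRDX arrays and 1264 on the WT arrays. It thus differed by group, and the authors' scaling cannot be told apart from the line. The authors' values are linear, not centred, and unlogged. The medians of the 12 columns of that table lay between 0.0598 and 0.137.

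Here, log2 processed signals of 37685 non-control spots were set relative to each array's 75th percentile, outlier spots were dropped, and the remaining spots of each probe were averaged. A locus with several probes took the brightest. A gene was tested if well above background on all 4 arrays of a group. Groups were compared with limma 3.58.1 in R 4.3.3, in a single fit of 12 arrays with 9 residual degrees of freedom, with Benjamini-Hochberg adjustment. The number of arrays limits the precision. The script was tested on simulated data. Members and lists were chosen with earlier results of these data known. All 44 were described, with values per array for the LHCB1, LHCB2, LHCB4, RBCS, PSAD, PSAE and PSAH families and for the 6 largest passing changes per direction, and from other lists the 3 genes of lowest p that passed in each line were named, except 1 gene that is not reported here. Brightness, replicate order and neighbouring genes (RefSeq, TAIR10.1 names) were looked at after the values were seen. Background correction by normexp, an alternative, used median spot and background signals, since the files hold no mean signal.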

Additional observations from a re-analysis of the deposited data

Results flagged for a closer look

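In a comparison of the lowest or highest array of each group of 4 with its nearest neighbour, 3 of 129 gene and group sets had an array standing apart, where chance gives about 5%, or 6.45. LHCB1.4 stood at 3.99 on the array of MYB106SRDX replicate 4, where the other 3 arrays lay between 6.25 and 6.45. PSAE2 stood at 3.98 on the array of WIN1SRDX replicate 3, where the others lay between 4.27 and 4.31. PSAO stood at 6.9 on the array of WT replicate 1, where the other 3 lay at 6.89.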

How the results depend on the processing

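RBCS1B, PSAE2 and PSAH1 stayed past the threshold against WT in both lines under every alternative. Called under every alternative that tested them were 5 of the 23 genes in MYB106SRDX and 5 of the 9 in WIN1SRDX, and 0 of 1 between the lines. With array-median scaling, 5 genes passed lower and 10 higher in MYB106SRDX against WT, and 11 higher in MYB106SRDX against WIN1SRDX, since all genes shifted by 0.54 and 0.49. Among genes that passed under either scaling, the log2 fold changes that changed sign were, in MYB106SRDX against WT, LHCA1 0.41, LHCA2 0.0053, LHCB1.1 0.50, LHCB1.5 0.52, LHCB4.1 0.41, LHCB5 0.0071, LHCB6 0.021, PSAE1 0.054, PSAO 0.090, PSBR 0.42, and against WIN1SRDX, LHCB1.1 0.41, LHCB1.5 0.47, PSBX 0.35. Fitting only the groups compared gave 15 lower in WIN1SRDX against WT, where 8287 of all tested genes passed in either direction, against 6605 in the main setting. Between the lines, lower genes numbered 5 with quantile normalization, 1 with normexp, 12 with the authors' value table, 1 with the mean of a locus's probes and 2 with slide as a block, and RBCS2B was lost (0 higher) with quantile normalization, only the groups compared, and with the filter on all 12 arrays, which leaves it and LHCB2.1, LHCB2.2, LHCB2.3 and PSBY untested. For paralog ratios, 15 pairs passed in WIN1SRDX with normexp, since 15 of 26 at the smallest p are needed for any to pass. Between the lines, 7814 to 8630 of all tested genes passed with quantile normalization, normexp, the authors' value table, probe means or slide as a block. Causes of the other moves were not tested. Leaving out 1 array at a time gave 14 to 29 lower genes and 1 higher in MYB106SRDX against WT, 5 to 8 lower and 1 higher in WIN1SRDX against WT, and 0 to 10 lower and 0 to 1 higher between the lines. Without 1 array of the groups compared, 9163 to 10642, 4834 to 6259 and 7662 to 8622 of all tested genes passed in either direction, in the same order. Same-numbered arrays of 2 groups had correlated deviations of -0.164 to 0.195, so the numbers do not pair the samples; with a replicate block, 19 passed lower and 1 higher in MYB106SRDX against WT, 7 and 1 in WIN1SRDX against WT, and 0 and 0 between the lines. Of all tested genes, 10033, 5860 and 8012 passed in either direction with a replicate block, in the same order. Keeping spots marked as outliers, chosen after seeing the data, changed no count by over 1.5 times. Dim spots near background limit the size of the LHCB2.1 and LHCB2.2 falls.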
